A study of Mus musculus with 30 samples.

Results

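Voltage-gated ion channels are membrane proteins that open or close with the voltage across the membrane, and 39 genes that encode them or their subunits were followed here in motor neurons made from mouse embryonic stem (ES) cells. The 39 were taken by name from the 45706 genes of the expression files: 21 potassium channel genes (Kcna, Kcnb, Kcnc, Kcnd, Kcnq and Kcnh families), 7 sodium channel genes (Scn), 8 calcium channel genes (Cacna1) and 3 HCN genes. The study concerns the genes that Mnx1, a homeodomain transcription factor also known as Hb9, regulates in motor neurons. It holds 30 libraries, of which 8 are RNA-seq and 22 are ChIP-seq, the sequencing of DNA bound to a chosen protein or histone mark. The RNA libraries form 4 groups, each with 2 libraries. These are wild-type ES cells, motor neurons made from the wild type, and motor neurons made from 2 further lines, HD and EH, both of which carry the single genotype label Mnx1KO. All 3 motor neuron groups went through the same induction of 6 days in culture, with RA and SAG (1 µM each) from day 2 and with DOX (1 µM) and DAPT (5 µM) added from day 4, so the wild-type motor neurons received these agents too. The labels do not say what the names HD and EH stand for, how many clones each line holds, or whether the libraries of a group came from separate cultures, so p-values measure the spread between these libraries, which may be technical. ChIP-seq was done in wild-type and HD motor neurons only.

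Potassium channels let potassium leave the cell and bring its voltage back after each impulse, and their Kcna, Kcnc and Kcnd members differ in how fast and at what voltage they open. Sodium channels carry the rising phase of the impulse through an alpha subunit (Scn1a, Scn3a, Scn8a, Scn9a) that beta subunits (Scn2b, Scn3b, Scn4b) modulate, and calcium channels of the Cacna1 genes trigger transmitter release or shape burst firing. HCN channels open on hyperpolarisation and carry the pacemaker current of neurons and heart. Many such genes are held in stem and precursor cells in a state in which H3K4me3, a mark of promoters, and H3K27me3, the mark laid down by the Polycomb complex, lie at the same gene start, while H3K27ac marks active promoters and enhancers and H3K9me3 is best known from heterochromatin.

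Total expected counts, in M (mega), were 51.3 to 53.2 M in the ES libraries, 39.7 to 39.8 M in EH and 11.2 to 13.9 M in HD and wild-type motor neurons, so low genes were measured more finely in ES cells and EH. Mnx1 RNA was at 395 and 343 TPM (a transcript level scaled by transcript length and library size) in wild-type motor neurons, 377 and 312 in HD and 446 and 565 in EH, so RNA summed over the gene did not check the knockout label. The 10 spinal motor neuron markers all had a mean of 1 TPM or more in each motor neuron group, and all 12 general neuronal markers as well. Markers of other cells differed between the lines: the summed TPM of 12 trophoblast markers was 561 to 627 in wild type, 503 to 684 in HD and 39.2 to 119 in EH. The 10 muscle and heart markers, cells that use several of the same channel genes, summed to 6.00 to 10.9 TPM in all motor neuron libraries, with Myod1 at 0.00 to 0.02 and Ttn at 0.02 to 0.04. In bulk libraries such as these, fewer cells of a type and less RNA per cell cannot be told apart.

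Together the 39 genes summed to 53.3 and 49.7 TPM in the ES libraries and to 618 and 508 TPM in wild-type motor neurons. In the motor neurons 12 genes had a mean of 10 TPM or more, 18 lay between 1 and 10 and 9 were below 1, against 1, 9 and 29 in ES cells. Of the 37 genes with enough counts to be tested, 33 were higher in wild-type motor neurons than in ES cells and 1 was lower (edgeR's quasi-likelihood test, Benjamini-Hochberg adjusted p under 0.05). Over all 17770 genes tested, 38.8% were higher, 36.5% lower and 75.3% either. With the ES and wild-type libraries fitted alone the counts were again 33 and 1, where 37.7% of all genes were higher and 38.8% lower (76.4% either). Both counts of 33 include Scn4b, which entered these fits only through its few wild-type counts. The median log2 fold change was 3.52 for the channel genes and 0.02 for all genes. The 3 tested genes without a call were Kcna3, Kcnq3 and Kcnq5, and Kcna4 and Cacna1i had too few counts for the test.

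**Figure D1:**
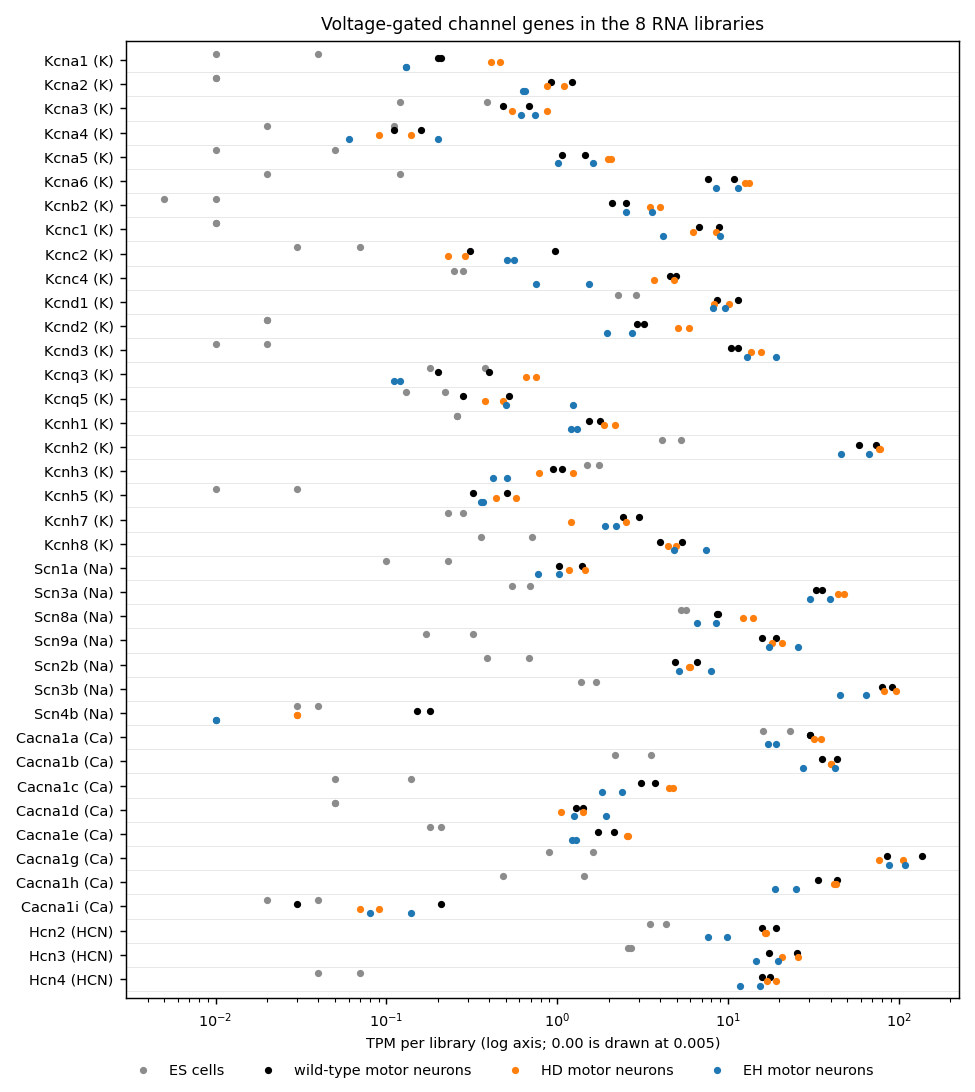
TPM (log axis) of each of the 39 channel genes in the 8 RNA libraries, 1 point per library, coloured by group, with K, Na, Ca and HCN naming the channel family. ES cells lie to the left of the motor neuron libraries for most genes, Kcnh3 being the exception that passed as lower in wild-type motor neurons, and EH lies lowest of the motor neuron groups for Kcnc4, Kcnq3, Cacna1h and Hcn2.

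Among the potassium channel genes, 16 of 20 tested rose and 1 fell. Kcnh2, which encodes the channel of the rapid delayed rectifier current known as hERG in human, was the highest, at 73.2 and 58.5 TPM in wild-type motor neurons against 5.31 and 4.11 in ES cells (log2 fold change 3.21 ± 0.20 SE, edgeR adjusted p = 2.2e-06). Kcnd3, which encodes an A-type channel, stood at 10.4 and 11.5 TPM in motor neurons and at 0.01 and 0.02 in ES cells, and Kcnd1, of the same family, at 11.4 and 8.57 against 2.26 and 2.88. The motor neuron and ES libraries did not overlap for any of these 3 genes. Kcnb2, which encodes a delayed rectifier, had 161 and 207 counts in motor neurons and 0 and 2 in ES cells, a ratio of 691 after scaling to library totals (exact 95% interval 190 to 5731, counting error only). Kcnh3, of the ether-a-go-go family, was the one that fell, from 1.75 and 1.49 TPM in ES cells to 1.06 and 0.94 (log2 fold change -1.34 ± 0.29, adjusted p = 0.00302). Its call was lost on the log2(TPM + 0.1) scale (to -0.64, with limma), where the median of all genes was 0.60. Kcnc1, a Shaw-type gene of fast-firing neurons, was at 8.90 and 6.73 TPM against 0.01 in both ES libraries, and Kcna6 at 10.9 and 7.67 against 0.02 and 0.12. Lower down, Kcnh8 was at 3.98 and 5.39 TPM, Kcnh1 at 1.53 and 1.77, Kcna5 at 1.46 and 1.06 and Kcna2 at 1.22 and 0.92, and in each the motor neuron libraries lay above both ES libraries. Of the potassium channel genes, 7 stayed below a mean of 1 TPM in wild-type motor neurons, among them Kcna1, Kcnc2 and both listed M-current genes, Kcnq3 and Kcnq5.

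All 7 sodium channel genes passed as higher in motor neurons, but Scn4b entered the fit only through its few wild-type counts. The beta subunit gene Scn3b was the highest, at 91.6 and 79.4 TPM in wild-type motor neurons and at 1.37 and 1.68 in ES cells (log2 fold change 5.60 ± 0.26, edgeR adjusted p = 6.2e-07). Of the alpha subunits Scn3a, the type expressed early in neuronal life, was at 32.7 and 35.6 TPM against 0.54 and 0.69, and Scn9a, best known from sensory neurons, at 19.2 and 15.8 against 0.17 and 0.32. Scn8a, the alpha subunit of adult nodes of Ranvier and initial segments, was at 8.75 and 8.61 TPM, and Scn1a at 1.39 and 1.02. Among these 4 alpha subunits the wild-type libraries kept the order Scn3a, Scn9a, Scn8a, Scn1a without overlap. Scn4b rested on 7 and 6 counts in wild type and 8 and 6 in the deeper ES libraries (0.18 and 0.15 TPM against 0.04 and 0.03), and its call (adjusted p = 0.0190) was lost with DESeq2 (0.309 as adjusted p).

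The 7 calcium channel genes that could be tested rose. Cacna1g, which encodes a low-voltage-activated T-type channel, was the highest of all 39, at 136 and 84.9 TPM in wild-type motor neurons against 0.89 and 1.61 in ES cells (log2 fold change 5.75 ± 0.33, adjusted p = 1.5e-06). Its 2 wild-type libraries differed by more than most, so its rank above Scn3b did not exceed the spread. Cacna1b, the N-type channel of synapses, was at 43.4 and 35.6 TPM, and Cacna1h, another T-type channel, at 43.6 and 33.6, ranges that overlapped each other. Cacna1a encodes the P/Q-type channel that drives release at the mature neuromuscular junction. RNA summed over this gene was already at 23.18 and 15.99 TPM in ES cells and reached 30.3 and 30.1 in motor neurons. Its mean transcript length was shorter in ES cells (below), so these levels may be of unlike transcripts. The L-type genes Cacna1c and Cacna1d were lower, at 3.75 and 3.10 and at 1.41 and 1.29 TPM, and Cacna1i, the remaining T-type gene, had 4 and 2 counts in wild type. All 3 HCN genes rose: Hcn3 to 25.2 and 17.5 TPM from 2.61 and 2.71, Hcn4 to 17.6 and 15.8 from 0.04 and 0.07, and Hcn2 to 15.8 and 19.1 from 4.34 and 3.50. In the motor neurons these 3 overlapped, so they had no order beyond their spread.

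For some channel genes the transcripts themselves were longer in motor neurons. RSEM, among the tools in the submitters' processing notes, reports for each gene a length that is the mean over its transcripts weighted by their abundance. For Scn8a this length was 1453 and 1620 bases in ES cells and 7076 and 5608 in wild-type motor neurons. For Cacna1e, the R-type calcium channel, it was 3316 and 5296 bases against 14157 and 14232, with only 23 and 41 counts in the ES libraries. For Cacna1a it was 1578 and 1900 bases against 3759 and 3095, with 1312 and 1080 counts in ES cells. In none of the 3 did ES cells and motor neurons overlap, and for Scn8a the HD and EH libraries lay at 5179 to 5411 bases, above ES cells and below both wild-type libraries. Of the 20 channel genes with 20 counts or more in each ES and wild-type library, 2 (Scn8a and Cacna1e) were at least 2-fold longer in motor neurons and 0 at least 2-fold shorter, and over 12856 genes with such counts 0.373% were longer by that much. Since TPM divides by this length, Scn8a went from 5.28 and 5.66 to 8.75 and 8.61 TPM while its counts rose by 2.19 ± 0.19 on the log2 scale (edgeR adjusted p = 1.7e-05). Cacna1a behaved alike, with a log2 fold change of counts of 1.05 ± 0.14 (adjusted p = 1.5e-04). These lengths rest on the split of reads between transcripts, and no test was made of them.

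**Figure D2:**
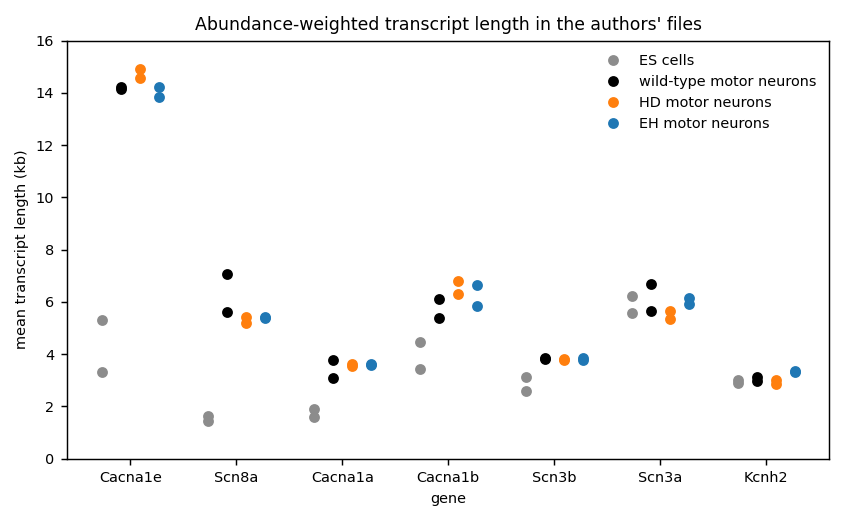
Mean transcript length (kb, axis from 0) of 7 channel genes in each library, weighted by transcript abundance, 1 point per library and 1 colour per group. Scn8a, Cacna1e and Cacna1a are shorter in both ES libraries than in any motor neuron library, while Kcnh2 and Scn3a are of like length in all groups.

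Promoter marks were read from the authors' peak lists, 1 per mark and genotype, as a peak within 2 kb of an annotated gene start. For 28 genes the start and its strand came from a RefSeq promoter table (GRCm38.p6, the mm10 build of the files). For the other 11 either end of the gene was used. Since each list pools its libraries, presence or absence carries no replicate error and was not tested, and the fold enrichment of a peak is the authors' own value, used only within its list. H3K4me3 lay at the start of all 39 channel genes in both genotypes, against 88.2% (wild type) and 87.5% (HD) of 14608 RNA-tested genes with a start. H3K27me3 lay at 32 of 39 starts in wild type, against 24.3% of all tested genes, and each of the 32 also carried H3K4me3 (24.1% of all). In HD it lay at 25 of 39, against 16.9%. H3K27ac lay at 20 of 39 in wild type, against 67.5% of all tested genes, and at 21 in HD, against 69%. H3K4me1 lay at 38, all but Scn3a, against 86.8%. No Mnx1 peak lay within 2 kb of any of the 39 starts, or within 5 kb, while 20.8% of all tested genes had one within 2 kb.

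**Figure D3:**
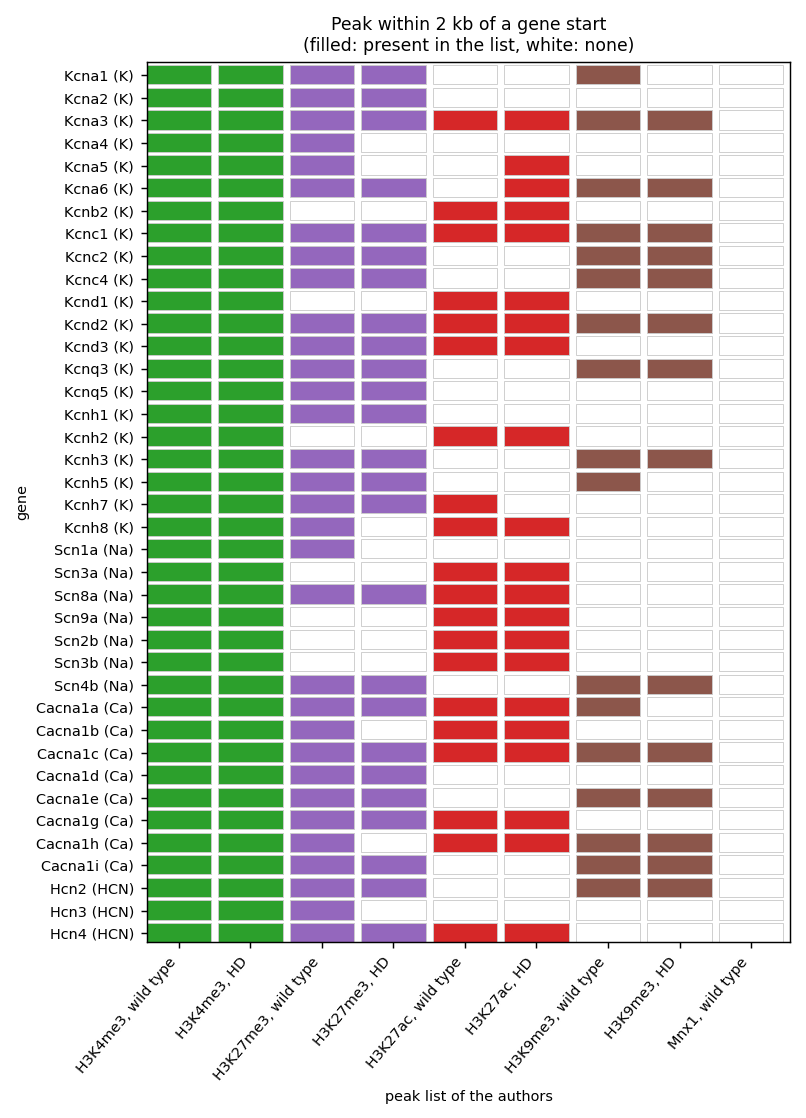
Peaks within 2 kb of the start of each of the 39 channel genes (rows) in 9 of the authors' lists (columns), a filled cell for a peak and a white cell for none. H3K4me3 fills both of its columns, H3K27me3 fills 32 cells in wild type and 25 in HD, and the Mnx1 column is empty.

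The 7 genes without H3K27me3 at the start in wild type were the sodium channel genes Scn3a, Scn9a, Scn2b and Scn3b and the potassium channel genes Kcnb2, Kcnd1 and Kcnh2, and all 7 carried H3K27ac (7 of 39, against 55.8% of all tested genes). Their mean levels ranged from 2.31 to 85.5 TPM with a median of 17.5. A further 13 genes (against 11.4% of all) carried H3K4me3, H3K27me3 and H3K27ac at a start, among them Cacna1g, Cacna1b, Cacna1h, Hcn4 and Scn8a, with a median of 8.68 TPM (0.58 to 110). The remaining 19 (against 12.7% of all) carried H3K4me3 and H3K27me3 without H3K27ac and had a median of 1.07 TPM (0.12 to 21.3). Medians over all tested genes with the same marks were 34.0, 19.8 and 2.98 TPM, in the same order. Hcn3 at 21.3 and Hcn2 at 17.4 mean TPM were the 2 highest of the 19. Cells of different kinds pooled in 1 library can give such combinations, and this was not tested. Cacna1a was counted among the 13, but its marks lay at different ends of the gene, both of which were read: H3K27me3 lay at the lower end of the gene only, where H3K4me3 enrichment was 4.8, and the strong H3K4me3 peak (44.3) and H3K27ac lay at the upper end.

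**Figure D4:**
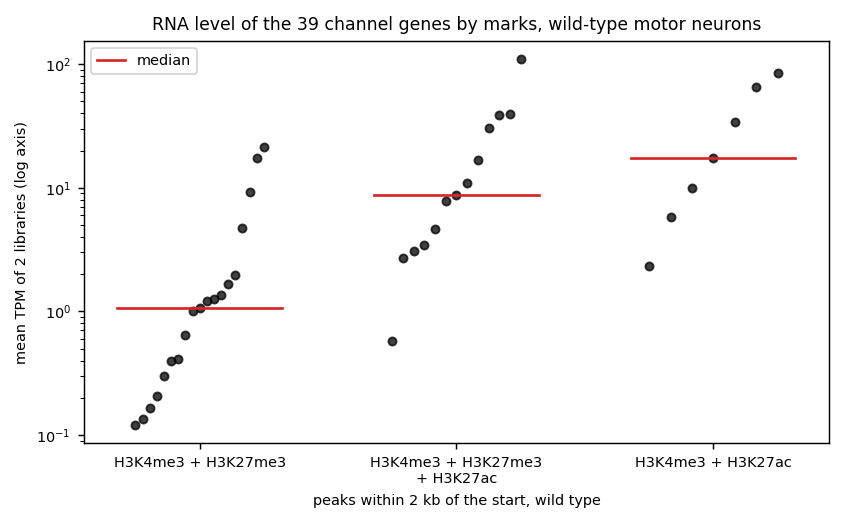
Mean TPM of 2 wild-type motor neuron libraries (log axis) for each of the 39 channel genes, by the marks with a peak at its start in the wild-type lists, with a red line at the median of each class. Levels are lowest where H3K27me3 lies without H3K27ac, and the classes overlap.

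H3K9me3 lay at 17 of 39 starts in wild type, against 10.3% of all tested genes. All 17 carried H3K27me3 as well, as did 80.5% of all tested genes with H3K9me3. Read the other way, 17 of the 32 channel genes with H3K27me3 (53.1%) carried H3K9me3, against 34.1% of all tested genes with H3K27me3. In HD H3K9me3 lay at 14 of 39 starts, against 6.56% of all tested genes. The 3 genes with it in wild type and none in HD were Kcna1, Kcnh5 and Cacna1a (3 of 17, against 44.1% of all tested genes with H3K9me3 in wild type). The H3K9me3 lists come from 1 library per genotype.

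The promoters of 6 genes are shown because the data bear on them. Kcnc4, Hcn2 and Cacna1e had less RNA in EH, and Kcna5, Kcnh8 and Cacna1b had H3K27me3 in the wild-type list and none in HD. Each line gives the 250 bases before the RefSeq start, 5′ to 3′ on the gene's strand, in lower case with each CpG, the pair of letters that marks CpG islands when frequent, in capitals.
Kcnc4 (chr3:107458899-107459148, minus strand, GRCm38.p6): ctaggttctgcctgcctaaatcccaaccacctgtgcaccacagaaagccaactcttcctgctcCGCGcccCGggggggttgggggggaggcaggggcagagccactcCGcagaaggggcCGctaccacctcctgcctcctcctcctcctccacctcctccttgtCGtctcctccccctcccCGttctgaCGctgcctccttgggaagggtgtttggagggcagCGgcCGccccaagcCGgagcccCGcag
Hcn2 (chr10:79716384-79716633, plus strand): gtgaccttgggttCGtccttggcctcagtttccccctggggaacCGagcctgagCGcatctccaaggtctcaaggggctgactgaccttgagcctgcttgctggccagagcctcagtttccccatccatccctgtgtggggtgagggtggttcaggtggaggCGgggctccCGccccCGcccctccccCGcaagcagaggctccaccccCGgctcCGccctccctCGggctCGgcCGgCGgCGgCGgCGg
Cacna1e (chr1:154725921-154726170, minus strand): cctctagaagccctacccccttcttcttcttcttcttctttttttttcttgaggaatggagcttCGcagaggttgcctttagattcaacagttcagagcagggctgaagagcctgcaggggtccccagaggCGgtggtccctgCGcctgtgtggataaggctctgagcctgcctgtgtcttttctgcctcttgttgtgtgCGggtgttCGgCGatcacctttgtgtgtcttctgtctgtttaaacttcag
Kcna5 (chr6:126535556-126535805, minus strand): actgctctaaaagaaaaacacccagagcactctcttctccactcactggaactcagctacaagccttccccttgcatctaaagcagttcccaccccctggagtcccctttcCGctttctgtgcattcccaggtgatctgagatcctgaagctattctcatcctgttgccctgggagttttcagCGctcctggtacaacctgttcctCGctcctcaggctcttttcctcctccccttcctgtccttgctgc
Kcnh8 (chr17:52602459-52602708, plus strand): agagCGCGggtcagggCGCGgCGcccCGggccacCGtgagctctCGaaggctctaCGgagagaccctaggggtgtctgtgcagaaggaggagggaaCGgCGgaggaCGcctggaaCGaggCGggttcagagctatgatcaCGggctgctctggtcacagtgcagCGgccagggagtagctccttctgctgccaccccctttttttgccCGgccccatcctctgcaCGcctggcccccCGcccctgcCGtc
Cacna1b (chr2:24763153-24763402, minus strand): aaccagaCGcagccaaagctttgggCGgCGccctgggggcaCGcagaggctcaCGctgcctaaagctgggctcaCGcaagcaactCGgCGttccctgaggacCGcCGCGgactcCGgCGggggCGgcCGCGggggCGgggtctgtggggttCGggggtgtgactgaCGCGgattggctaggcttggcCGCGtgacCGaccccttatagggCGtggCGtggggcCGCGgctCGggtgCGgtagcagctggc

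These 6 held between 3 (Kcna5) and 29 (Cacna1b) CpG pairs, with 12 in Kcnc4, 16 in Hcn2, 6 in Cacna1e and 20 in Kcnh8. The 36 promoters of 28 channel genes in the table had a median of 14 CpG and a median observed-to-expected CpG ratio of 0.52, against 15 and 0.70 for the promoters of genes tested for RNA. Kcna5, the poorest in CpG of the 6, also had the weakest H3K4me3 of them, with an enrichment of 7.5 in wild type, where the list's median was 33.84. In Kcnc4 and Hcn2 the H3K27me3 peaks were among the strongest of the wild-type list, with enrichments of 11.7 and 11.8 (both at the 96th percentile) and widths of 6.1 and 4.7 kb. Cacna1e had 4.6, and Kcna5, Kcnh8 and Cacna1b had 4.3, 3.6 and 3.4, near the list's median of 3.49. The homeodomain core TAATTA, which reads the same on both strands, was in 0 of the 36 channel gene promoters, in 2.5% of the promoters of RNA-tested genes and in 4.84% of all 32851 promoters of the table. CAATTA, searched on both strands, was in 3 of 36 (8.33%; Cacna1d, Kcnq5 and Scn4b), in 4.31% of those of tested genes and in 7.17% of all. No match says only that these letters are not in this window.

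Mnx1 peaks lay inside 8 of the 39 genes (Kcnd2, Kcnq3, Scn3a, Cacna1a, Cacna1c, Cacna1d, Cacna1g and Cacna1i), a share of 20.5%, against 24.5% of all tested genes. Channel genes are long (median 110 kb against 23.4 kb), and of those of 100 kb or more 35.0% held a Mnx1 peak, against 40.7% of all tested genes of that length. Of these 8, the nearest to a start was in Cacna1g (chr11:94464237-94464718, mm10, enrichment 3.6), 9.7 kb away inside the gene, and it overlapped H3K27ac and H3K4me1 in wild type. Another lay inside Scn3a, 14.9 kb from its start (chr2:65552269-65552687, enrichment 3.5), with the same marks. The one in Cacna1c (chr6:119174946-119175577, enrichment 4.6) overlapped H3K27ac and H3K4me3. The one in Cacna1a (chr8:84414643-84415150, enrichment 4.6), 76.0 kb from the nearest end of the gene, overlapped H3K27ac, H3K4me3 and H3K27me3. So Mnx1 peaks were absent near the annotated starts read here, but not from all H3K4me3 sites of these genes. The strongest of the 8, in Cacna1d (chr14:30138519-30139038), had an enrichment of 6.1 and lay 214.4 kb from the nearest start. Outside the genes, a Mnx1 peak lay 8.9 kb from an end of Kcnh3 (chr15:99251698-99252433, enrichment 4.8). Among the antibodies listed in the labels is one to GFP, with no antibody to Mnx1 itself, and the labels do not state by which of them Mnx1 was precipitated.

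Between the genotypes, 7 of the 32 channel genes with H3K27me3 in the wild-type list had none in the HD list: Kcna4, Kcna5, Kcnh8, Scn1a, Cacna1b, Cacna1h and Hcn3. Of all tested genes with H3K27me3 in wild type, 31.0% had none in HD, and the HD list was the shorter, with 5729 entries against 9365. So the share of channel genes, 21.9%, was not above that of other genes. The enrichments of these 7 in wild type, at the stronger end for Hcn3, ran from 3.0 (Kcna4) to 4.3 (Kcna5), while the genes that kept the mark ran from 3.6 (Kcnh7) to 17.9 (Kcnh3). No channel gene had H3K27me3 in HD alone (0 of 39, against 0.164%). H3K27ac was in the HD list alone at Kcna5 and Kcna6, Shaker-type potassium channel genes (2 of 39, against 2.75% of all tested genes), with enrichments of 2.0 at both, at the 4th and 3rd percentiles of that list. It was in the wild-type list alone at Kcnh7 (1 of 20, against 1.84%). In the list labelled as wild-type H3K27ac the peaks themselves are named K27ac_KO, and the label was followed. If the labels were crossed, these last 3 genes would change sides.

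Between HD and wild type no channel gene passed the RNA test. Of 36 genes tested, 0 passed edgeR's test after adjustment, 7 had an unadjusted p under 0.05 (5.60% of all genes had), and DESeq2 called 0. Of all 15565 genes tested, 0.173% passed (0.135% higher and 0.0385% lower). The median log2 fold change was 0.23, and 26 of 36 were positive, against -0.01 and 46.6% for all genes. When wild type and HD were fitted without EH, the spread was smaller and 2 genes were higher in HD, where 1.71% of all genes were higher and 0.507% lower (2.21% either). Kcnb2, the delayed rectifier gene, was at 3.99 and 3.51 TPM in HD, 2.09 and 2.53 in wild type and 2.52 and 3.60 in EH (log2 fold change 0.85 ± 0.15, edgeR adjusted p = 0.0343 in that fit and 0.383 with EH included). Kcnd2, the main A-type channel gene of dendrites, was at 5.93 and 5.09 TPM against 2.93 and 3.21 (0.86 ± 0.15, adjusted p = 0.0332 and 0.365). In both genes the HD libraries lay above the wild-type ones without overlap. The test had picked them from these same libraries, so this adds no support. In the joint fit the same count of 2 came without either EH library, where 2.02% of all genes were called. In the fit without EH, 4 genes were called without HD replicate 2 (3.40% of all genes), 3 without wild-type replicate 2 (2.01%), 0 without wild-type replicate 1 (1.73%), and 1, which was lower, without HD replicate 1 (1.29%).

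The other genes with an unadjusted p under 0.05 were Kcna1, Kcnq3, Cacna1c and Cacna1e, which had higher estimates in HD, and Kcnh7, which had a lower one. Kcna1, a Shaker-type channel of axons, was at 0.41 and 0.46 TPM in HD and 0.20 and 0.21 in wild type, on 14 to 29 counts. Kcnq3 was at 0.66 and 0.75 against 0.20 and 0.40 (log2 fold change 1.28 ± 0.36, adjusted p = 0.464). Kcnh7, the gene with H3K27ac in the wild-type list alone, was at 2.53 and 1.21 TPM against 2.42 and 3.03 (-0.79 ± 0.21, adjusted p = 0.385), and its HD and wild-type libraries overlapped in TPM. Kcna5 and Kcna6, with H3K27ac in HD alone, were at 2.06 and 1.99 against 1.46 and 1.06 TPM and at 13.2 and 12.6 against 10.9 and 7.67, with adjusted p of 0.977 for both. The 5 tested genes besides Kcna5 with H3K27me3 in the wild-type list and none in the HD list had log2 fold changes of 0.19 (Hcn3) to 0.37 (Scn1a), none called.

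In EH, 7 of the 36 tested channel genes were lower than in wild type and 0 were higher, where 11.6% of all tested genes were lower and 9.61% higher (21.2% either). They were 4 calcium channel genes, 2 potassium channel genes and 1 HCN gene. The median log2 fold change over the 36 was -0.26 against 0.00 for all genes, and 11 of 36 were positive against 50.3%. Kcnc4, a Shaw-type channel of fast-firing cells, was at 1.54 and 0.75 TPM in EH against 4.56 and 4.95 in wild type (log2 fold change -2.03 ± 0.35, edgeR adjusted p = 0.0120). Its EH libraries lay far below all the other motor neuron libraries, HD being at 3.71 and 4.86. Hcn2, a pacemaker channel gene, was at 7.67 and 9.87 TPM against 15.8 and 19.1 (-0.98 ± 0.17, adjusted p = 0.0121), with HD at 16.5 and 16.8. Cacna1h, the T-type gene, was at 18.9 and 24.9 against 43.6 and 33.6 (-0.87 ± 0.14, adjusted p = 0.0102), with HD at 41.8 and 42.8, while Cacna1g, the other T-type gene of high level, was at 87.6 and 108 against 136 and 84.9 with no call.

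The high-voltage-activated genes that fell were Cacna1a, at 17.1 and 19.0 TPM against 30.3 and 30.1 (-0.64 ± 0.12, edgeR adjusted p = 0.0156), Cacna1c, the L-type gene, at 1.83 and 2.38 against 3.75 and 3.10 (-0.65 ± 0.17, 0.0391 as adjusted p) and Cacna1e at 1.22 and 1.28 against 2.16 and 1.74 (-0.64 ± 0.14, adjusted p = 0.0241). EH and wild type did not overlap in any of these 3, which adds no support, as the test had picked them from these same libraries. HD was at 34.9 and 32.0 TPM for Cacna1a, 4.79 and 4.53 for Cacna1c and 2.60 and 2.56 for Cacna1e, above both wild-type libraries in each, with no call. Cacna1b, the N-type gene, had overlapping libraries, 27.6 and 42.4 TPM against 43.4 and 35.6, and an estimate of -0.04 ± 0.14 on the log2 scale. Kcnq3, of the M-current, was at 0.11 and 0.12 TPM against 0.20 and 0.40 (-1.33 ± 0.38, adjusted p = 0.0490). Scn4b, a beta subunit gene, had 7 and 6 counts in wild type and 1 count in each library of both lines (0.01 TPM in both EH libraries and 0.03 in both HD libraries). Scaled to library totals, wild type held 18.6 times the counts of EH and 5.52 times those of HD. These ratios rest on few counts and are given without an interval, since replicates differed beyond sampling noise. Scn4b had too few counts for the joint fit. It entered the fit of wild type and EH alone only through its wild-type counts, so no test of it is given. The sodium channel genes Scn3b and Scn8a had adjusted p of 0.0530 and 0.133, with Scn3b at 45.5 and 64.6 TPM against 91.6 and 79.4.

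**Figure D5:**
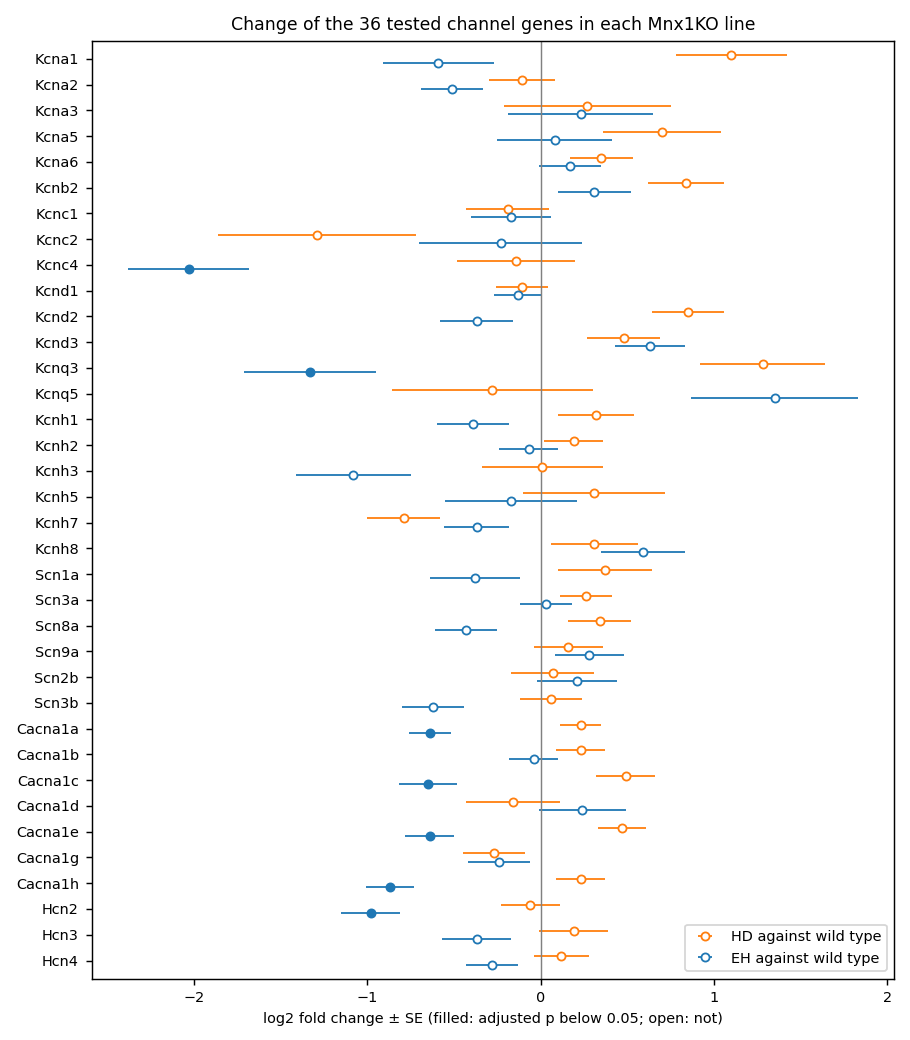
Log2 fold change against wild-type motor neurons, with its standard error, of the 36 tested channel genes in HD (orange) and EH (blue), filled where the adjusted p was below 0.05. All 7 filled points are in EH and lie below 0, and no HD point is filled.

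These calls depended on single libraries. Without wild-type replicate 1, and likewise without wild-type replicate 2, 0 channel genes were called in EH, where 0.95% and 0.598% of all genes were called. Without EH replicate 1 there were 14 calls, 7 higher and 7 lower, where 18.1% of all genes were higher and 18.9% lower. Without EH replicate 2 there were 13, all lower, where 14.2% of all genes were lower and 13.2% higher. Without either HD library 4 were called, all lower, where 7.52% and 7.54% of all genes were lower. In the fit of wild type and EH alone Kcnc4, Cacna1a, Cacna1h and Hcn2 were lower, where 7.48% of all genes were lower and 5.38% higher (12.9% either). Scn4b also passed in that fit but is not counted, as it entered only through its wild-type counts. The summed TPM of the 39 genes was 393 and 532 in the EH libraries, so EH replicate 1 lay below all the other motor neuron libraries (508 to 631). Other cell markers moved with EH. Of the 12 trophoblast markers 9 of 10 tested were lower, and none was at 0 in both EH libraries. Of 10 inhibitory interneuron markers, whose sum was 10.7 to 11.8 TPM in EH and 28.1 in both wild-type libraries, 5 of 8 tested were lower. Of 11 neural progenitor markers, whose sum was 444 to 527 against 246 to 294, 5 of 9 tested were higher. The summed TPM of 10 endoderm markers was 505 to 702 in EH and 1163 to 1440 in wild type, with 4 lower and 1 higher of 10 tested. Most of that sum was Krt8 (385 and 246 TPM in EH, 637 and 790 in wild type) and Krt18 (276 and 204, 479 and 600). Gata4 went the other way, at 6.53 and 19.5 against 2.62 and 2.68, and the list's median log2 fold change was 0.41. The sum thus does not stand for the whole list. The part of these cells, and of the deeper sequencing of EH, in the channel differences was not tested.

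All 7 genes lower in EH carried H3K27me3 at a start in wild type, 7 of the 29 tested channel genes with that mark and 0 of the 7 without it. Over all genes 24.2% of those with the mark and 7.88% of those without it were lower in EH, so the channel genes with H3K27me3 fell about as often as other such genes. The same 7 were among the 15 tested channel genes with H3K9me3, and 0 of the 21 without H3K9me3 fell, against 25.4% and 10.3% over all genes. These splits were made after the values were seen. No ChIP-seq of EH was analysed here.

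The most abundant channel genes of each family without a call among motor neurons were spread as follows. Kcnh2 was at 77.0 and 77.6 TPM in HD and 45.6 and 66.6 in EH, Kcnd3 at 15.6 and 13.7 in HD and 12.9 and 19.2 in EH, and Kcnd1 at 10.1 and 8.28 in HD and 8.17 and 9.60 in EH. The early sodium channel gene Scn3a was at 47.6 and 43.9 TPM in HD and 30.3 and 39.7 in EH, and Scn9a at 20.7 and 18.1 in HD and 17.3 and 25.6 in EH. Cacna1g was at 106 and 76.7 TPM in HD and Cacna1b at 39.9 and 40.3. Of the pacemaker genes, Hcn3 was at 25.7 and 20.6 TPM in HD and 14.6 and 19.5 in EH, and Hcn4 at 16.9 and 19.1 in HD and 11.7 and 15.5 in EH. Against wild type the EH libraries overlapped for Kcnh2, Kcnd1, Scn3a, Scn9a, Cacna1g, Cacna1b and Hcn3, and they lay above for Kcnd3 and below for Hcn4.

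The 2 lines were compared directly in the same fit, since each had been compared with the same wild-type libraries. Of the 36 genes 11 were higher in HD than in EH and 0 were lower, where 11.8% of all tested genes were higher and 9.43% lower. With HD and EH fitted alone 10 were higher, all but Scn3b, where 7.18% of all genes were higher and 5.11% lower (12.3% either). The 11 were Kcna1, Kcnc4, Kcnd2, Kcnq3, Scn8a, Scn3b, Cacna1a, Cacna1c, Cacna1e, Cacna1h and Hcn2, and all 7 genes that fell in EH were among them. Both comparisons use the same EH libraries, so this overlap is no separate support. Kcnq3 differed most, at 0.66 and 0.75 TPM in HD and 0.11 and 0.12 in EH (log2 difference 2.61 ± 0.36, edgeR adjusted p = 0.00710). Kcna1 was at 0.13 TPM in both EH libraries (1.69 ± 0.30, adjusted p = 0.0121). Kcnd2 was at 5.93 and 5.09 TPM in HD and 1.95 and 2.73 in EH, with wild type in between at 2.93 and 3.21 (1.23 ± 0.21, adjusted p = 0.0110). Scn8a, of the initial segment, was at 14.1 and 12.2 against 6.57 and 8.46 (0.77 ± 0.18, adjusted p = 0.0268). Scn3b was at 96.0 and 81.9 against 45.5 and 64.6 (0.68 ± 0.18, adjusted p = 0.0412). In all 11 genes the HD and EH libraries did not overlap in TPM. The test had picked the genes from these same libraries, so this adds no support to the calls. Calls fell to 0 without HD replicate 2, where 1.74% of all genes were called, and to 3 without HD replicate 1 (5.08%). They rose to 18 (12 higher and 6 lower) without EH replicate 1, where 17.0% of all genes were higher and 15.5% lower, and to 20, all higher, without EH replicate 2 (16.2% higher and 14.8% lower).

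Genes that work with these channels were read from 5 further lists. Over all genes tested, 38.8% were higher and 36.5% lower in wild-type motor neurons than in ES cells. In EH 11.6% were lower and 9.61% higher than in wild type. In HD against EH 11.8% were higher and 9.43% lower. The counts of each list are to be read beside these shares. Of 30 other pore-forming voltage-gated genes, 13 of 20 tested rose from ES cells to wild-type motor neurons and 4 fell. Scn2a, an alpha subunit of developing axons, reached 11.7 and 9.24 TPM against 0.53 and 0.43 (log2 fold change 4.90 ± 0.17, edgeR adjusted p = 2.0e-07). In HD no gene of the 5 lists was called, where 0.173% of all tested genes were. In EH this list had 3 genes lower and 4 higher of 18 tested. Kcnh6, a relative of Kcnh2, was at 2.00 and 1.19 TPM against 4.63 and 4.29 (-1.43 ± 0.28, edgeR adjusted p = 0.0161), and Scn7a, an atypical sodium channel gene, at 0.34 and 0.56 against 0.10 in both wild-type libraries (2.11 ± 0.44, adjusted p = 0.0191).

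Of the auxiliary subunits of sodium, calcium and HCN channels 15 of 19 tested rose in wild-type motor neurons and 2 fell, and in EH 4 of 18 were lower and 1 higher. Pex5l, known as TRIP8b, which controls HCN channels at the membrane, was at 14.1 and 14.6 TPM in EH against 27.8 in both wild-type libraries (-0.96 ± 0.10, edgeR adjusted p = 0.00492), beside the fall of Hcn2. Cacng2, also called stargazin, fell by 0.85 ± 0.14 on the log2 scale (adjusted p = 0.0102), and the calcium channel subunit gene Cacna2d3 was at 4.05 and 4.33 against 6.54 and 8.33. Cacna2d1, a subunit of the same kind, was higher, at 33.2 and 49.3 TPM against 21.4 and 18.9 (1.04 ± 0.19, adjusted p = 0.0135). In HD against EH 7 of these 18 were higher and 1 lower, with Cacna2d3 at 16.5 and 18.4 TPM in HD (2.05 ± 0.17, adjusted p = 0.00215). Auxiliary subunits of potassium channels had 6 of 10 tested higher and 1 lower against ES cells, and in EH only Kcnip1 was called, at 35.8 and 52.2 TPM against 29.4 and 22.7 (0.75 ± 0.21, adjusted p = 0.0489).

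Of the calcium-activated, tandem-pore and inward rectifier potassium channel genes, 9 of 17 rose and 5 fell against ES cells, and 4 of 15 were lower and 1 higher in EH. Kcnt1, which encodes a sodium-activated potassium channel, was at 3.84 and 2.38 TPM in EH against 15.0 and 13.4 (-1.97 ± 0.25, adjusted p = 0.00620), and Kcnn1, a small-conductance calcium-activated channel gene, at 5.82 and 9.36 against 17.7 and 13.8. Of 10 genes for proteins that hold channels at the axon initial segment and node, 9 rose and 1 fell against ES cells, and 3 were lower and 1 higher in EH. Sptbn4, the spectrin of these sites and the one that fell against ES cells, was at 2.81 and 3.24 TPM against 7.40 and 6.17 (-1.02 ± 0.19, adjusted p = 0.0143), and Cntnap2, which holds Kcna channels beside the node, at 5.97 and 6.40 against 10.2 and 10.9. Cntn2, its partner at the axon, was higher, at 363 and 571 against 151 and 116 TPM (1.83 ± 0.23, adjusted p = 0.00603). The genes of these lists thus moved both ways in EH. The EH and wild-type libraries did not overlap for any of those named here as higher or lower in EH. The calls came from these same libraries, so this is no separate support.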

How the data were processed

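RNA was measured in 8 libraries and chromatin in 22. Per the file headers, the authors' RNA files give for each of 45706 Ensembl genes a length, an expected count and TPM. Per the submitters' processing notes, Trim Galore, STAR, RSEM, Bowtie2, SAMtools, Subread, featureCounts, DESeq2 and MACS2 were used with mm10, without versions or roles. The deposited peak lists, without headers, hold a fold enrichment (a ratio) and a −log10 q for each peak, 1 list per mark and genotype. How replicates were joined in them is not given in the sources used here.

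After rounding, the expected counts went into the quasi-likelihood test of edgeR 4.0.16 (TMM, filterByExpr; R 4.3.3), with p-values adjusted by Benjamini-Hochberg over all genes and a threshold of 0.05. One fit of 6 motor neuron libraries served the comparisons among them, and 1 fit of all 8 the comparison with ES cells. A standard error is the log2 fold change over the root of its F. The motor neuron fit has 3 residual degrees of freedom. Alternatives were DESeq2 1.42.0, RLE scaling, no filter, the compared groups alone, a replicate block, limma 3.58.1 on log2(TPM + 1) and log2(TPM + 0.1), and each library left out. On simulated data, 2-fold changes were recovered at 71.1% in HD, 64.9% in EH, 74.2% for HD against EH and 52.7% against ES cells. False calls there numbered 10 to 20. The simulation gave each gene the same spread in all groups. The real replicates had a chi-square per gene against sampling noise of 53.35 in EH, 6.32 in wild type and 4.75 in HD, at unlike depths. These shares are thus not the power of the real tests. Replicates of every group differed beyond sampling noise.

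Peaks were matched to starts ±2 kb (1 bp or more) in Python 3.11.15 with pandas 2.3.3. Entries with the same ends were counted as 1 region, and only the main chromosomes were used. Symbols were found for 45143 genes. Each listed gene is accounted for. Values in every motor neuron library are given for those called among motor neurons, alone or jointly fitted, and for the 3 highest of each family. Up to 4 genes of each further list with the smallest adjusted p are named, and other genes were named after their values were seen. Some genes of these lists are not reported here. The genes and lists were chosen with earlier results of these data known. Protein sequences were not used here.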

Additional observations from a re-analysis of the deposited data

Results flagged for a closer look

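The effects of the lines HD and EH against wild type differed in 11 channel genes, by the direct test of HD against EH (edgeR, adjusted p under 0.05), each higher in HD. Over all tested genes 11.8% were higher in HD and 9.43% lower. The calls depended on which single libraries were kept. The log2 difference was 1.69 for Kcna1, 1.89 for Kcnc4, 1.23 for Kcnd2 and 2.61 for Kcnq3. It was 0.77 for Scn8a and 0.68 for Scn3b. It was 0.87 for Cacna1a, 1.14 for Cacna1c, 1.11 for Cacna1e, 1.09 for Cacna1h and 0.92 for Hcn2. Both lines carry the same genotype label. With 2 libraries a group, single libraries could not be tested for standing apart.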

How the results depend on the processing

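The rise from ES cells to wild-type motor neurons kept its count under all alternatives run, with 32 to 34 genes called. For HD against wild type the count of 0 went to 2 with the compared groups alone, and ranged from 0 to 2 with a library left out of the joint fit and from 0 to 4 (3 without wild-type replicate 2) with one left out of the fit of these groups alone, an alternative added after seeing the data. For EH against wild type the 7 calls became 11 without a filter on low counts, where more genes are tested (2 higher, 9 lower), and 4 on either TPM scale. They ranged from 0 to 14 with a library left out of either fit. For HD against EH the 11 calls ranged from 0 to 20 with a library left out (19 in the fit of these groups alone without EH replicate 2). The cause of these shifts was not tested. Of single genes, Kcnc1 in HD against EH turned from -0.02 to 0.40 (adjusted p = 0.0385) without EH replicate 2 and was -0.35 without EH replicate 1. Correlations of same-numbered libraries ran from -0.08 to 0.08, so no large shift shared by a number was seen. With 2 libraries a group this cannot show whether samples were paired. With the replicate block the counts were 34 against ES cells, 0 in HD, 5 in EH and 10 for HD against EH (9 higher, 1 lower). Of the promoter counts, H3K27ac in wild type was 13 among the 28 genes with a strand (fewer genes counted), and H3K27ac in HD alone was 1 at a −log10 q of 5 or more. The other promoter counts that were rerun, of H3K27me3, H3K4me3, H3K27ac and Mnx1 peaks, stayed within 1.5 times under every window, overlap and threshold. Counts of H3K9me3, of H3K4me1, of H3K27me3 in HD alone and of the classes by H3K27me3 and H3K27ac were not rerun. With 11.2 M counts in the shallowest library, genes below 1 TPM such as Kcna1, Kcnq3 and Scn4b rest on few counts.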
